A study of Mus musculus with 8 samples.

Results

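The genes described here are the 9 Fc receptor and antibody transport genes *Fcgr1*, *Fcgr2b*, *Fcgr3*, *Fcgr4*, *Fcer1g*, *Fcgrt*, *Fcmr*, *Pigr*, and *Trim21*. They were chosen by name, with earlier results of these data known, and form 9 of the 46078 genes listed in the count tables. Messenger RNA was measured by bulk sequencing in stroke infarcts from 8 wild-type C57BL/6J mice, 18 months old and male, each animal giving 1 library. All 8 animals had DH stroke, in which the middle cerebral artery is occluded distally and hypoxia follows. From 1 week after stroke, 4 of them (vehicle) received sterile PBS and 4 received 4 g/kg of 2-hydroxypropyl-β-cyclodextrin (HPβCD), a cyclic oligosaccharide that can hold cholesterol and other lipids, under the skin 3 times per week for 6 weeks. Infarcts were collected at 7 weeks and dissected by eye, so that the amount of adjoining brain in a piece was not fixed. The comparison asks how transcripts of the infarct differed after repeated HPβCD.

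Fc receptors bind the constant part of antibodies and so couple antibody to the cells that carry them. The activating Fcγ receptors of macrophages and microglia (*Fcgr1*, *Fcgr3*, *Fcgr4*) bind IgG and signal through the chain encoded by *Fcer1g*, whereas *Fcgr2b* encodes the inhibitory IgG receptor, also carried by B lymphocytes. Other members of the group move or sense antibody. *Fcgrt* encodes the heavy chain of the neonatal Fc receptor, which returns IgG and albumin from endosomes to the cell surface, *Pigr* encodes the receptor that carries polymeric IgA and IgM across epithelia, *Fcmr* encodes the IgM receptor of lymphocytes, and *Trim21* encodes a ubiquitin ligase that binds antibody in the cytosol.

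Gene counts came to between 16.6 M and 32.9 M per library. Levels are given as CPM, counts scaled to a library total of 1 M after TMM adjustment, or as CPM per kb of exon where genes are compared with each other. Genes were called with edgeR at a Benjamini-Hochberg adjusted *p* under 0.05 over all 14736 tested genes, and values after ± are SDs over 4 animals unless named as SE. Vehicle animals 1 and 3 carried more neuronal RNA than the rest. The summed CPM of 7 neuron markers was 909 and 5710 in them against at most 74.2 in the other 6 animals. Glial RNA was uneven beyond these animals. The summed CPM of 6 oligodendrocyte markers was 2254 and 3031 in vehicle animals 2 and 4 and 158 to 1930 in HPβCD animals. That of 6 astrocyte markers was 2124 and 3522 in vehicle animals 2 and 4 and 607 to 2436 in HPβCD animals. For the members, values with vehicle animals 1 and 3 both left out are given where a call depends on them. Leaving out both does not even out the glial sums. Over all tested genes, edgeR called 202 with both left out and 0 with vehicle animal 1 alone left out. Which called genes outside the members kept their call with both left out was not examined. In bulk tissue, fewer cells of a type and less RNA per cell cannot be told apart.

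Of the 9 members, 8 had enough counts to be tested, and 2 of them passed the test. *Fcgrt* was higher and *Fcmr* was lower in HPβCD infarcts. Over all tested genes edgeR called 287 (1.95%), while 4094 of the 14736 were at an unadjusted *p* under 0.05, the background for the unadjusted counts given with the gene lists. DESeq2 called 3 members (*Fcer1g* in addition), where it called 17.5% of the genes that it gave an adjusted *p*. limma-voom with sample quality weights called the same 2 members as edgeR, with 22.1% of all tested genes called. The ranges of the 4 vehicle and 4 HPβCD animals did not overlap for 3 members (*Fcer1g*, *Fcgrt*, and *Fcmr*), against 16.8% of all tested genes. The median log2 fold change was 0.25 over the 8 tested members and -0.05 over all tested genes. Values above 0 were seen in 6 members and values below 0 in 2.

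**Figure D1:**
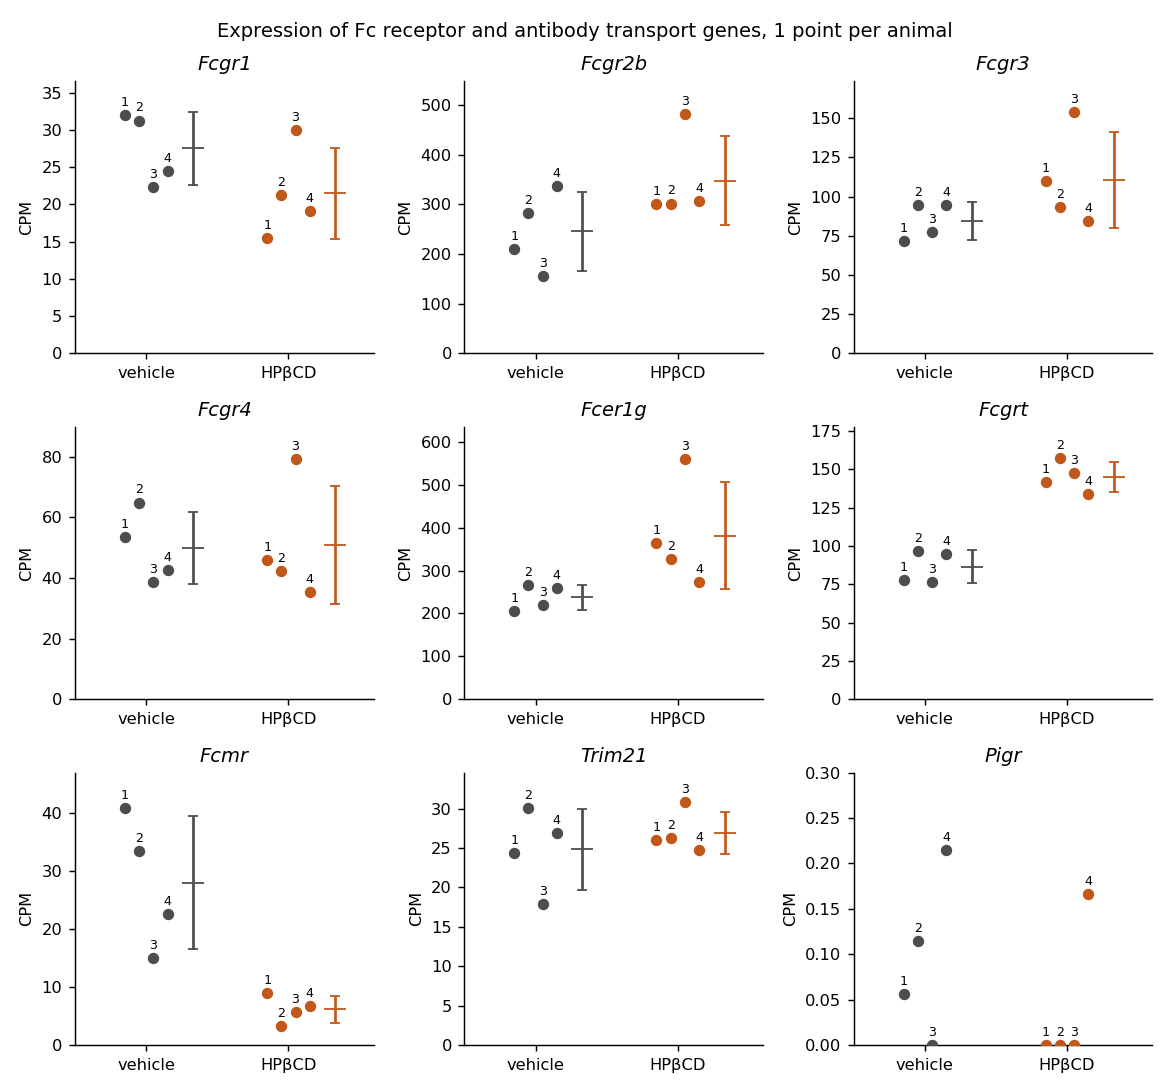
Expression of the 9 members in each infarct, in CPM on a linear axis starting at 0, with vehicle animals in gray and HPβCD animals in orange. Numbers are the animal numbers, and the dash with bars to the right of each group is its mean ± SD over 4 animals (not drawn for *Pigr*, which had at most 4 counts in a library). All 4 HPβCD animals lie above all 4 vehicle animals for *Fcgrt* and *Fcer1g* and below them for *Fcmr*.

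The per-length levels put *Fcer1g* far above every receptor it serves. In vehicle infarcts it stood at 272 ± 33.2 CPM per kb. *Fcgr3* (48.6 ± 6.85), *Fcgr2b* (42.5 ± 13.7), *Fcgrt* (41.1 ± 5.16), and *Fcgr4* (39.7 ± 9.46 CPM per kb) followed, and neighbors among these 4 differed by less than their SDs. *Fcmr* (16.2 ± 6.59 CPM per kb), *Fcgr1* (10.6 ± 1.88), and *Trim21* (6.69 ± 1.39) were lower, and again *Fcmr* and *Fcgr1* differed by less than the SD of *Fcmr*. In HPβCD infarcts *Fcgrt* (69.1 ± 4.68 CPM per kb) stood beside *Fcgr3* (63.6 ± 17.7) and *Fcgr2b* (60.1 ± 15.5), differing from either by less than the SD of that gene. *Fcmr* (3.55 ± 1.34 CPM per kb) fell to the last place among the tested members, below *Trim21* (7.26 ± 0.71) and *Fcgr1* (8.30 ± 2.38). These ranks rest on all annotated exon bases of a gene, 5790 for *Fcgr2b*, 1736 for *Fcgr3*, and 1256 for *Fcgr4*. Which transcripts were in use was not measured.

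Among the activating receptors, the high-affinity IgG receptor gene *Fcgr1* (chr3:96282909-96293969 of GRCm38, minus strand) measured 32.1, 31.3, 22.3, and 24.5 CPM in vehicle animals 1 to 4. The HPβCD animals gave 15.5, 21.3, 29.997, and 19.2 CPM. HPβCD animals 1, 2, and 4 lay below every vehicle animal, and HPβCD animal 3 lay within the vehicle range, so the groups overlapped. *Fcgr1* was not called (log2 fold change -0.36, SE 0.23, edgeR adjusted *p* = 0.336). The value was -0.23 without HPβCD animal 1 and -0.56 without HPβCD animal 3. *Fcgr1* is the receptor of this family best known to respond to interferon, through a GAS element near its start, and the bases before the gene are shown for this reason, from RefSeq (GRCm38.p6, chr3:96293970-96294219, minus strand). Capitals mark, in order, a match to the GAS letters TTCNNNGAA (positions -109 to -101 from the RefSeq start) and a match on the other strand to the core letters GAGGAA bound by the myeloid factor PU.1 (positions -55 to -50).
*Fcgr1*: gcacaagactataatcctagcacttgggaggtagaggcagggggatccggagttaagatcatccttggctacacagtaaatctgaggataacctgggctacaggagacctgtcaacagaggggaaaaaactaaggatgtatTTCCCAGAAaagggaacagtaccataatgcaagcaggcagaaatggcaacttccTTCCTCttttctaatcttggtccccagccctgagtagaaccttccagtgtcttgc

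The other activating receptor genes, *Fcgr3* and *Fcgr4*, did not pass the test in either direction. *Fcgr3* (chr1:171051174-171064935, minus strand) measured 71.5, 94.5, 77.1, and 94.6 CPM in vehicle animals 1 to 4 and 110.2, 93.3, 154, and 84.7 CPM in HPβCD animals 1 to 4. HPβCD animals 1 and 3 were above every vehicle animal and the other 2 were within their range. Its difference was 0.39 in log2 fold change and was not called (SE 0.21, edgeR adjusted *p* = 0.254), and was 0.19 without HPβCD animal 3, 0.21 in limma-voom, and 0.24 with vehicle animals 1 and 3 both left out. *Fcgr4* (chr1:171018920-171029761, plus strand), which encodes a receptor mainly of monocytes and macrophages, measured 53.6, 64.9, 38.6, and 42.5 CPM in vehicle animals and 46.1, 42.4, 79.4, and 35.5 CPM in HPβCD animals. HPβCD animal 3 was the highest of all 8 and HPβCD animal 4 the lowest. The difference in *Fcgr4* was near 0 (log2 fold change 0.03, SE 0.27, edgeR adjusted *p* = 0.963). Its sign depended on the setting, being -0.27 without HPβCD animal 3.

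The inhibitory receptor gene *Fcgr2b* (chr1:170958617-170976547, minus strand) measured 209.6, 283, 156, and 336 CPM in vehicle animals 1 to 4. The HPβCD animals gave 301, 302, 482, and 306 CPM. HPβCD animal 3 stood apart from the other 3, which were within 5 CPM of each other, and the groups overlapped because vehicle animal 4 exceeded 3 of the HPβCD animals. *Fcgr2b* was not called (log2 fold change 0.50, SE 0.27, edgeR adjusted *p* = 0.263). The value was 0.30 without HPβCD animal 3, 0.15 in limma-voom, and 0.18 with vehicle animals 1 and 3 both left out. *Fcgr2b* and *Fcgr3* are near copies over part of their coding sequence. Of the 1733 windows of 75 bases in the exons of *Fcgr3*, 5.42% also occur in *Fcgr2b*. A read from such a window could not by itself be assigned to 1 of the genes, though its mate in the pair might be. Of the 5768 windows of *Fcgr2b*, 5.43% also occur in other genes, 69 in all, and 94 windows are shared with *Fcgr3*. The exons of *Fcgr1*, *Fcgr4*, *Fcer1g*, *Fcgrt*, *Fcmr*, and *Trim21* shared no such window with another gene. On the opposite strand, 2.68% of *Fcgr2b* exon bases lie within the gene model *Gm38204*.

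Within the make-up of the receptor transcripts, the share of *Fcgr1* did not overlap between the groups, though its level overlapped and was not called. Of the summed per-length level of the 4 Fcγ receptors, *Fcgr1* made up 9.35%, 7.23%, 7.79%, and 6.06% in vehicle animals and 3.79%, 5.56%, 4.70%, and 5.39% in HPβCD animals. The HPβCD animals were all below the vehicle animals (mean 4.86% ± 0.80 against 7.61% ± 1.37). The shares of *Fcgr2b* (35.1% ± 2.47 in HPβCD and 29.5% ± 5.53 in vehicle), *Fcgr3* (37.0% ± 2.12 and 34.7% ± 3.96), and *Fcgr4* (23.1% ± 2.06 and 28.2% ± 4.70) overlapped between the groups. The inhibitory-to-activating ratio, *Fcgr2b* over the sum of the 3 activating receptors, was 0.543 ± 0.060 in HPβCD and 0.426 ± 0.118 in vehicle infarcts. The groups overlapped because vehicle animal 4 reached 0.594. The size of the shares and of this ratio depends on the exon lengths used. In CPM, without length, the vehicle means were 246 for *Fcgr2b*, 84.4 for *Fcgr3*, 49.9 for *Fcgr4*, and 27.5 for *Fcgr1*. These shares are some of several ratios within a library that were looked at, and were described without a test. For comparison, the groups did not overlap for 16.8% of all tested genes.

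**Figure D2:**
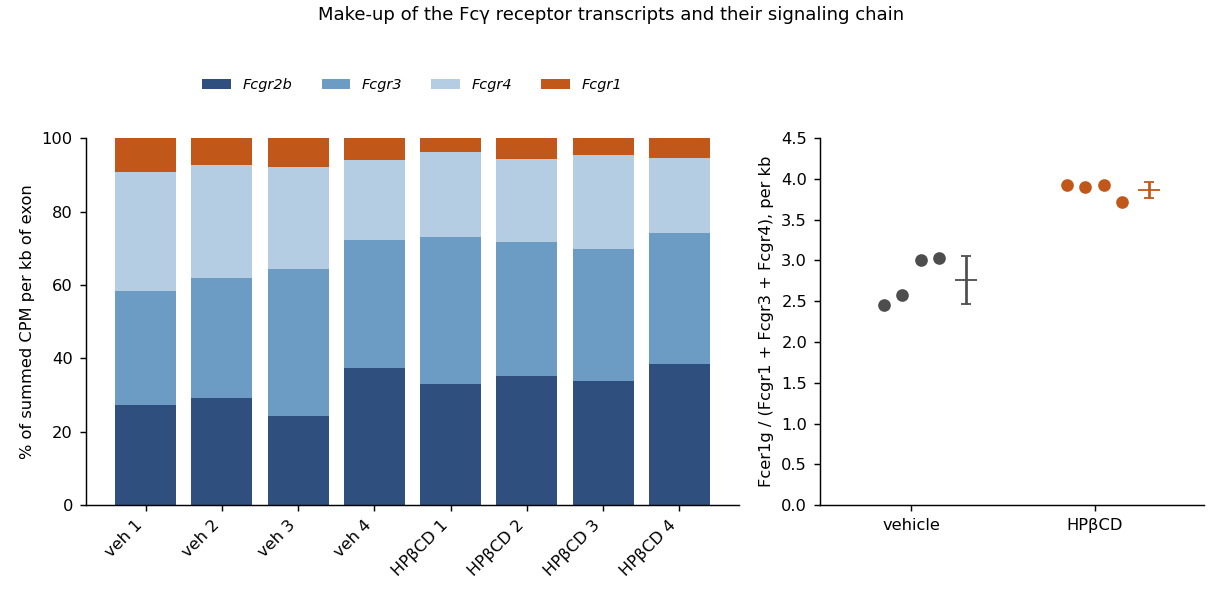
Left, percent of the summed CPM per kb of exon of the 4 Fcγ receptor genes taken by each gene in each infarct (veh, vehicle). Right, level of the signaling chain *Fcer1g* over the sum of the 3 activating receptors, both in CPM per kb, 1 point per animal with the group mean ± SD (n = 4). The *Fcgr1* share is smaller in all 4 HPβCD infarcts (3.79% to 5.56%) than in any vehicle infarct (6.06% to 9.35%), and the chain ratio is larger in all 4.

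The signaling chain gene *Fcer1g* (chr1:171229572-171234365, minus strand) encodes the small membrane protein whose activation motif passes on the signal of the activating Fcγ receptors. It measured 207, 266, 219.8, and 259 CPM in vehicle animals 1 to 4 and 364, 327, 560.0, and 274 CPM in HPβCD animals 1 to 4. All HPβCD animals were above all vehicle animals, with HPβCD animal 4 only slightly above vehicle animal 2. The log2 fold change of *Fcer1g* was 0.68 (SE 0.23) and did not pass the test in edgeR (adjusted *p* = 0.105) or limma-voom (adjusted *p* = 0.0566), whereas DESeq2 gave an adjusted *p* of 0.0446. The DESeq2 call of *Fcer1g* was lost without vehicle animal 1 (adjusted *p* = 0.218), vehicle animal 3 (0.0506), vehicle animal 4 (0.0742), HPβCD animal 1 (0.119), HPβCD animal 2 (0.0885), or HPβCD animal 3 (0.132), and with vehicle animals 1 and 3 both left out (log2 fold change 0.54, DESeq2 adjusted *p* = 0.169). Without HPβCD animal 3, the highest, the edgeR log2 fold change was 0.44.

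Relative to the receptors it serves, *Fcer1g* was at 2.46, 2.57, 3.003, and 3.03 times the summed per-length level of *Fcgr1*, *Fcgr3*, and *Fcgr4* in vehicle animals. The same ratio was 3.92, 3.91, 3.92, and 3.72 in HPβCD animals, all above the vehicle animals. *Fcer1g* tracked *Fcgr3* closely within the groups (Pearson *r* = 0.987 over 8 libraries after centering each group on its mean). It also tracked *Fcgr4* (*r* = 0.827) and *Fcgr2b* (*r* = 0.725), and the correlation with *Fcgr1* was 0.549. The libraries differed in tissue composition, which was not adjusted for, and the values are given as descriptions. The tested genes outside the group with the pattern most like that of *Fcer1g* were *Ctss* (*r* = 0.990), a lysosomal protease of phagocytes, *Mfge8* (*r* = 0.988), a bridging protein for the uptake of dying cells, and *Npc2* (*r* = 0.987), a lysosomal cholesterol carrier, each over 8 libraries.

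Levels of phagocyte markers stood beside these receptors as follows. Of 8 pan-myeloid markers, 5 had log2 fold changes above 0 and 3 below, edgeR called none (2 at an unadjusted *p* under 0.05, 2 by DESeq2, 2 by limma-voom), and their summed CPM overlapped between the groups (1172 to 2009 in vehicle, 1706 to 2602 in HPβCD). The 3 most abundant, *Csf1r*, *Laptm5*, and *Adgre1*, had log2 fold changes of 0.13, 0.79, and 0.43. Of 7 foamy macrophage markers, 6 were above 0, and edgeR called *Gpnmb* higher (log2 fold change 1.38, adjusted *p* = 0.0483). Of the 7, 5 were at an unadjusted *p* under 0.05, 5 were called by DESeq2, and 4 by limma-voom. Their summed CPM did not overlap (8109 to 14660 in vehicle, 18044 to 31529 in HPβCD). All of these markers were detected. As a percent of the pan-myeloid sum, *Fcer1g* overlapped between the groups (12.5% to 18.8% in vehicle, 16.1% to 21.5% in HPβCD), as did *Fcgr2b*, *Fcgr3*, and *Fcgr4*. *Fcgr1* did not overlap (1.43% to 1.93% in vehicle, 0.87% to 1.15% in HPβCD) and was lower in HPβCD infarcts. The part of macrophage content in the *Fcer1g* and Fcγ receptor values was not tested.

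The partners and downstream molecules of the chain showed no call by edgeR. Of 7 other receptors known to use the *Fcer1g* chain, 4 were tested and edgeR called none (2 at an unadjusted *p* under 0.05, 1 by DESeq2, 3 by limma-voom). *Clec4d*, a lectin receptor of phagocytes, measured 22.3, 35.4, 24.5, and 26.7 CPM in vehicle and 55.4, 49.5, 43.0, and 43.0 CPM in HPβCD animals, without overlap (log2 fold change 0.81, SE 0.18, edgeR adjusted *p* = 0.0550). Its relatives *Clec4e* (-0.87) and *Clec4n* (-0.23) had log2 fold changes below 0. Of 17 genes of activating Fc receptor signaling, 15 had log2 fold changes above 0, with a median of 0.11, and edgeR called none (3 at an unadjusted *p* under 0.05, 1 by DESeq2, 2 by limma-voom). The most abundant were the kinases *Lyn* (log2 fold change 0.05) and *Syk* (0.16) and the adaptor *Tyrobp*, the latter at 0.94 (SE 0.25, edgeR adjusted *p* = 0.0724). *Tyrobp* was the gene of this list called by DESeq2 (adjusted *p* = 0.00889). It is not the chain of the activating Fcγ receptors, which *Fcer1g* encodes. Of 8 inhibitory signaling genes, 3 were above 0 and edgeR called none (3 at an unadjusted *p* under 0.05, 1 by DESeq2, 3 by limma-voom). The phosphatases *Ptpn11* and *Inpp5d* had log2 fold changes of -0.38 and 0.32 and the kinase *Csk* had -0.03. All 5 subunits of the phagocyte oxidase, an effector of Fcγ receptor uptake, were above 0 (median 0.41, *Cybb* 0.19, *Ncf1* 0.41), and edgeR called none (2 at an unadjusted *p* under 0.05, 1 by DESeq2, 1 by limma-voom).

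The neonatal Fc receptor gene *Fcgrt* rose. It measured 78.1, 96.8, 76.2, and 94.9 CPM in vehicle animals 1 to 4 and 142, 158, 148, and 134 CPM in HPβCD animals 1 to 4. The lowest HPβCD animal was well above the highest vehicle animal, and the spread within each group was small (86.5 ± 10.9 and 145 ± 9.83 CPM). The log2 fold change was 0.75 (SE 0.13), a 1.68-fold higher level, with an edgeR adjusted *p* of 0.0483, a DESeq2 adjusted *p* of 0.000125, and a limma-voom adjusted *p* of 0.00552. In edgeR the call was lost on leaving out vehicle animal 1 (adjusted *p* = 0.152), vehicle animal 4 (0.0635), HPβCD animal 1 (0.156), HPβCD animal 2 (0.175), or HPβCD animal 3 (0.0899), fits in which edgeR called 0 to 4 genes of all those tested, and the log2 fold change stayed between 0.69 and 0.81. With vehicle animals 1 and 3 both left out, *Fcgrt* had a log2 fold change of 0.62 and an edgeR adjusted *p* of 0.0595, and with library totals alone, all 8 animals kept, 0.66 and 0.0582. DESeq2 called *Fcgrt* with each of these animals left out.

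*Fcgrt* lies on chr7:45092990-45103851 (minus strand). The bases before the gene are shown because *Fcgrt* was the member that rose, from RefSeq (GRCm38.p6, chr7:45103852-45104072, minus strand, 221 bases). They are in lower case throughout because none of the 3 motifs searched matched them.
*Fcgrt*: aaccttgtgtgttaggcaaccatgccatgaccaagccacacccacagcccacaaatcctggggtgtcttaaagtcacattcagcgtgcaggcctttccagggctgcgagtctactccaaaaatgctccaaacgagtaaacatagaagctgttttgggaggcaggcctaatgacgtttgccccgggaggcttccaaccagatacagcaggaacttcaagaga

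*Fcgrt* is made by endothelium, phagocytes, and several other cells, and markers of these cells stood beside it as follows. All 6 endothelial markers had log2 fold changes above 0 (0.23 to 0.72), edgeR called none (3 at an unadjusted *p* under 0.05, 2 by DESeq2, 3 by limma-voom), and their summed CPM overlapped (291 to 411 in vehicle, 379 to 633 in HPβCD). All 6 fibroblast markers were above 0, and edgeR called *Col1a1* (log2 fold change 1.61, adjusted *p* = 0.0483) and *Col1a2* (1.46, adjusted *p* = 0.0462). Of the 6, 4 were at an unadjusted *p* under 0.05, 3 were called by DESeq2, and 3 by limma-voom. Their summed CPM did not overlap (2348 to 6025 in vehicle, 8657 to 9270 in HPβCD). As a percent of the endothelial sum, *Fcgrt* was 25.1% ± 2.25 in vehicle and 29.2% ± 5.49 in HPβCD infarcts, with overlap. As a percent of the pan-myeloid sum it was 5.396% ± 0.83 and 7.38% ± 1.14, and as a percent of the fibroblast sum 2.21% ± 0.74 and 1.63% ± 0.08, also with overlap. The part of these cell types in the *Fcgrt* difference was not tested.

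The other parts of the IgG recycling pathway were not called. *B2m*, the light chain with which the *Fcgrt* product pairs, ranged from 1434 to 2607 CPM in vehicle and from 2056 to 3405 CPM in HPβCD infarcts (log2 fold change 0.30, edgeR adjusted *p* = 0.476). Of 10 genes of the partner, cargo, and recycling endosome list, 8 were tested, 4 of them above 0, and edgeR called none (2 at an unadjusted *p* under 0.05, 2 by DESeq2, 1 by limma-voom). The endosomal GTPases *Rab11a* and *Rab5a* had log2 fold changes of -0.11 and 0.08. *Alb*, the albumin gene, had 0 counts in every library, so a transcript of albumin, the other cargo of the receptor, was not detectable at this depth (3 counts would be 0.0861 to 0.184 CPM). The genes whose pattern was most like that of *Fcgrt* within the groups were the calcium channel gene *Cacna1d* (*r* = 0.979), *Zfp362* (*r* = 0.977), and the proteasome subunit gene *Psmd11* (*r* = 0.976), over 8 libraries.

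*Pigr* (chr1:130826684-130852249, plus strand) was close to absent. It had 1, 4, 0, and 4 counts in vehicle animals 1 to 4 and 0, 0, 0, and 3 counts in HPβCD animals 1 to 4, 12 counts in all. It was not tested, and no fold is given. A difference was not detectable at this depth. Of 7 markers of epithelium and choroid plexus, the cells that use this receptor, 4 were tested and the summed CPM was 48.0 to 67.8 in vehicle and 46.9 to 67.5 in HPβCD infarcts, with 1 of the 4 above 0. edgeR called none of them (1 at an unadjusted *p* under 0.05, 1 by DESeq2, 1 by limma-voom). *Fcamr*, the receptor for IgA and IgM close to *Pigr* on the chromosome, had at most 3 counts in any library.

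The IgM receptor gene *Fcmr* fell. It measured 40.9, 33.6, 15.1, and 22.7 CPM in vehicle animals 1 to 4 and 8.91, 3.31, 5.69, and 6.77 CPM in HPβCD animals 1 to 4. Vehicle animal 3 was the lowest of its group and was still above every HPβCD animal. The log2 fold change was -2.18 (SE 0.38), so that the HPβCD level was 0.22 of the vehicle level, with an edgeR adjusted *p* of 0.0483, a DESeq2 adjusted *p* of 1.23e-05, and a limma-voom adjusted *p* of 0.00540. In edgeR the call was lost on leaving out vehicle animal 1 (adjusted *p* = 0.150), vehicle animal 4 (0.0635), HPβCD animal 1 (0.155), HPβCD animal 2 (0.175), HPβCD animal 3 (0.0899), or HPβCD animal 4 (0.0532), and the log2 fold change stayed between -2.41 and -1.94. With vehicle animals 1 and 3 both left out it was -2.17 and was called (edgeR adjusted *p* = 0.0331). With library totals alone and all 8 animals it was -2.28 and was not called (edgeR adjusted *p* = 0.0539). DESeq2 called *Fcmr* with each of these animals left out.

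*Fcmr* (chr1:130865669-130880791, plus strand) holds a match to the PU.1 core just before its RefSeq start. The gene coordinates given here begin before that start, so the match lies inside them. PU.1 is a factor of both B lymphocytes and myeloid cells, and the 30 bases around the match are shown beside the member that fell, with the match on the other strand in capitals (GRCm38.p6, chr1:130865729-130865758, plus strand).
*Fcmr*: acagattatcatTTCCTCattttaagtcct

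In mice *Fcmr* is carried mainly by B lymphocytes, and markers of these cells moved with it. Of 8 B lymphocyte markers, 7 had log2 fold changes below 0 (median of the 8, -1.88) and edgeR called 3, all lower. The 3 were the antigen receptor chains *Cd79a* (log2 fold change -1.89) and *Cd79b* (-1.88) and the kinase *Blk* (-1.82). All 8 markers were at an unadjusted *p* under 0.05, and DESeq2 and limma-voom each called all 8. *Cd22*, an inhibitory lectin, was the exception in direction at 0.56 (SE 0.17, edgeR adjusted *p* = 0.0884). Its groups did not overlap, and it was among the genes called by DESeq2 and limma-voom. The summed CPM of the 8 markers was 212 to 630 in vehicle and 146 to 265 in HPβCD infarcts, with overlap, and without *Cd22* it was 153 to 561 and 49.2 to 139, without overlap.

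Set against those markers, the level of *Fcmr* depended on whether *Cd22* was counted. As a percent of the sum of the 8 markers, *Fcmr* was 6.09% ± 1.06 in vehicle and 3.02% ± 0.93 in HPβCD infarcts, without overlap. Without *Cd22*, a choice made after the values were seen, it was 7.42% ± 1.86 and 6.10% ± 1.21, and the groups overlapped. Relative to *Cd79a* alone it was 0.833 ± 0.075 in vehicle and 0.704 ± 0.182 in HPβCD infarcts, again with overlap. The part of B lymphocyte content in the *Fcmr* difference was not tested.

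**Figure D3:**
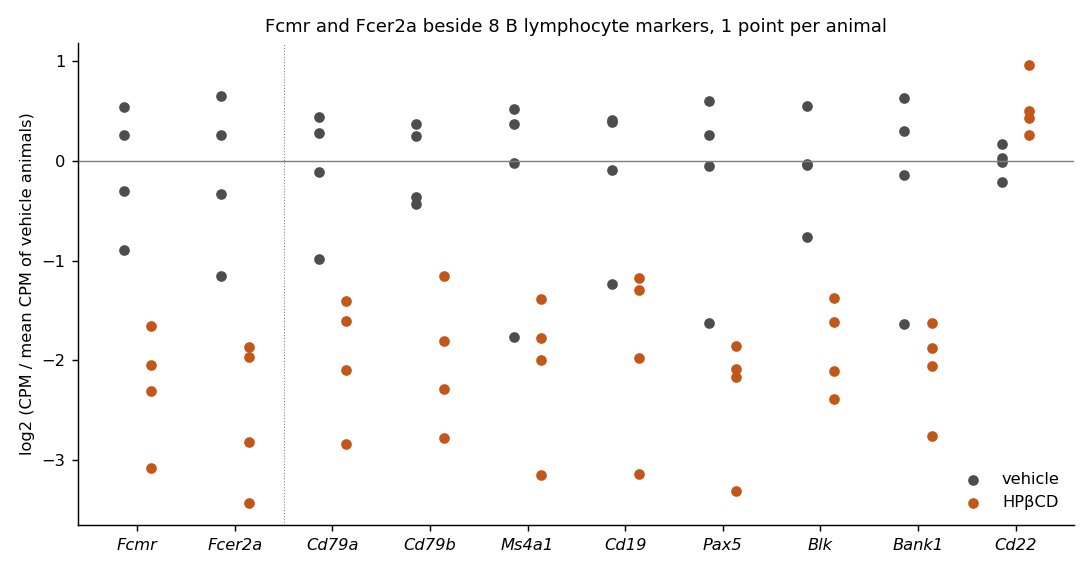
Level of *Fcmr*, of the IgE receptor gene *Fcer2a*, and of 8 B lymphocyte markers in each infarct, as log2 of the CPM over the mean CPM of the 4 vehicle animals, so that 0 is the vehicle mean (vehicle in gray, HPβCD in orange). *Fcmr*, *Fcer2a*, and 7 of the 8 markers lie lower on average in HPβCD infarcts, with log2 fold changes between -2.38 and -1.71, and *Cd22* lies higher at 0.56.

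Antibody receptors outside the 9 members that belong to B lymphocytes showed values in the same direction. Of 11 other antibody receptor and Fc receptor-like genes, 5 were tested, all 5 were below 0 (median -1.50), and edgeR called 1 lower (3 at an unadjusted *p* under 0.05, 3 by DESeq2, 3 by limma-voom). *Fcer2a*, the low-affinity IgE receptor of B lymphocytes, measured 12.8, 16.8, 4.84, and 8.55 CPM in vehicle animals and 2.76, 1.53, 2.95, and 0.999 CPM in HPβCD animals (log2 fold change -2.38, SE 0.47, edgeR adjusted *p* = 0.0483). All HPβCD animals were below all vehicle animals. *Fcrla*, a B lymphocyte protein of the endoplasmic reticulum, had -1.95 (SE 0.45, edgeR adjusted *p* = 0.0624) and *Fcrl5* had -1.50 (SE 0.49, edgeR adjusted *p* = 0.0976). *Fcrl1* (-0.27, SE 0.28) and the microglial gene *Fcrls* (-0.23, SE 0.32) lay within 1 SE of 0. The genes of the mast cell IgE receptor, *Fcer1a* and *Ms4a2*, which also uses the *Fcer1g* chain, had at most 11 counts in a library and were not tested.

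**Figure D4:**
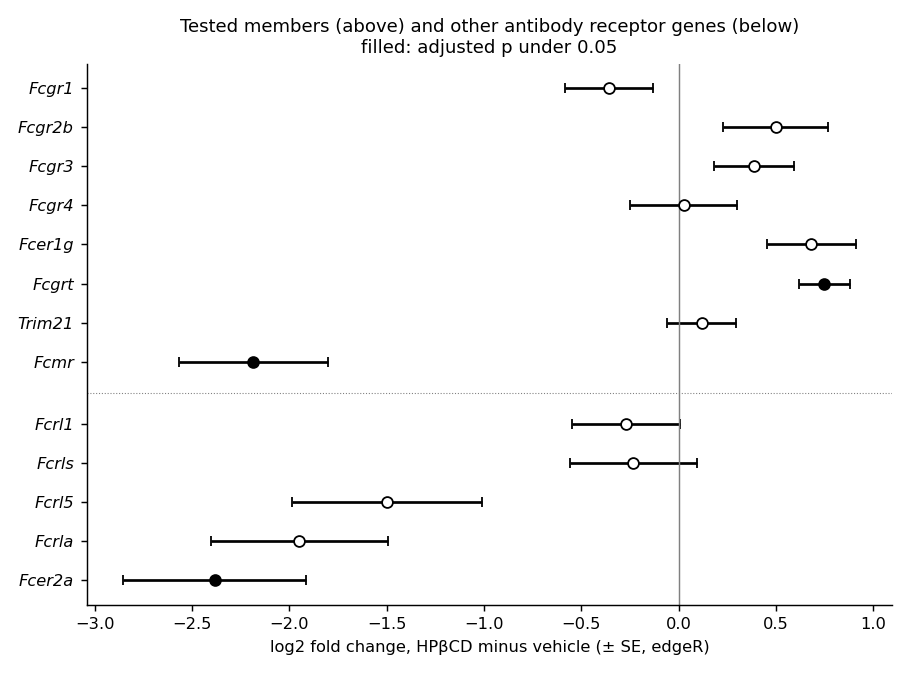
Log2 fold change, HPβCD minus vehicle, with its SE (edgeR, 4 against 4 animals) for the 8 tested members above the dotted line and for the 5 other tested antibody receptor genes below it. Filled points had an adjusted *p* under 0.05. *Fcgrt* lies at 0.75 and *Fcmr* at -2.18, beside *Fcer2a* at -2.38.

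Transcripts of antibody chain genes were lower in sum, and 3 single chains passed the test. None of the 3 was a heavy chain of IgM, IgA, or IgG, the antibodies that the members bind. The summed CPM of 13 antibody chain genes was 5491 to 18224 in vehicle and 373 to 2333 in HPβCD infarcts, without overlap. Of 12 that were tested, 11 had log2 fold changes below 0 (median -2.53) and edgeR called 3, all lower (9 by DESeq2, 9 by limma-voom). *Jchain*, the joining chain of the IgM and IgA polymers that *Fcmr* and *Pigr* products bind, fell by 4.00 on the log2 scale (SE 0.64, adjusted *p* = 0.0462). The light chain *Igkc* fell by 3.48 (SE 0.61, adjusted *p* = 0.0483) and *Ighd*, the IgD heavy chain, by 2.68 (SE 0.52, adjusted *p* = 0.0499). The IgM heavy chain *Ighm*, the ligand of the *Fcmr* product, measured 3089, 3835, 10638, and 2095 CPM in vehicle and 1247, 169.9, 163, and 326 CPM in HPβCD animals, without overlap, and missed the threshold (log2 fold change -3.37, SE 0.87, edgeR adjusted *p* = 0.0722). None of the 4 IgG heavy chains, the ligands of the Fcγ receptors and of the *Fcgrt* product and all named after their values were seen, was called by edgeR. *Ighg3* had a log2 fold change of 1.08 (edgeR adjusted *p* = 0.643), *Ighg2c* -1.26 (0.498), and *Ighg2b* -1.91 (0.164). The *Ighg2b* groups did not overlap (109 to 166 CPM in vehicle, 8.27 to 97.1 CPM in HPβCD). Both DESeq2 (adjusted *p* = 0.0302) and limma-voom (adjusted *p* = 0.00742) called *Ighg2b* lower. *Ighg1* (-8.46, edgeR adjusted *p* = 0.0793) rested mainly on vehicle animal 2, with 146, 2345, 5.02, and 23.5 CPM in vehicle and at most 4.24 CPM in HPβCD animals. Reads shared between similar heavy or light chain genes were not measured, and the counts of single chains are uncertain in that respect.

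*Trim21* (chr7:102557921-102565486, minus strand) measured 24.4, 30.1, 17.9, and 26.9 CPM in vehicle animals 1 to 4 and 26.0, 26.2, 30.8, and 24.8 CPM in HPβCD animals 1 to 4. Vehicle animal 3 was the lowest, and the groups overlapped. *Trim21* was not called (log2 fold change 0.12, SE 0.18, edgeR adjusted *p* = 0.715). Its log2 fold change was -0.01 without vehicle animal 3. The percent of *Trim21* in the pan-myeloid sum was slightly lower in HPβCD infarcts (1.36% ± 0.13 against 1.52% ± 0.04), without overlap. Of 6 ubiquitin and proteasome genes that act with TRIM21, 2 were above 0 and edgeR called none (4 at an unadjusted *p* under 0.05, 0 by DESeq2, 2 by limma-voom). *Vcp* and *Psmd14* had log2 fold changes of 0.40 and 0.13, and the ubiquitin-conjugating enzyme *Ube2n* had -0.54.

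*Trim21* and *Fcgr4* are known to respond to interferon, as is *Fcgr1*. The core of the interferon-stimulated response element, spelled as 2 copies of GAAA with any 2 bases between them and searched on both strands, occurred in the windows from 250 bases before to 50 bases after the RefSeq start of *Trim21* and *Fcgr4* and of no other member. They occurred in 3.99% of the windows of all 27025 genes and in 6 of 11 interferon response genes with a window. The GAS letters occurred in *Fcgr1* and *Pigr* (9.55% of all genes) and the PU.1 core in *Fcgr1*, *Fcgr3*, *Fcgr4*, *Fcmr*, and *Trim21* (31.3% of all genes). A match of letters is a description and not a binding site. The 30 bases around the response element match are shown for the 2 members that hold one (GRCm38.p6, chr7:102565447-102565476, minus strand, for *Trim21*, where 2 matches overlap, and chr1:171018843-171018872, plus strand, for *Fcgr4*), with the matches in capitals.
*Trim21*: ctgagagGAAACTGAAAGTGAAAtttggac
*Fcgr4*: ggtgtttctgGAAAAGGAAActggtgagat

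Of 14 genes of the type I interferon response, 10 had log2 fold changes below 0 (median -0.12) and edgeR called 1, *Rsad2*, lower (5 at an unadjusted *p* under 0.05, 4 by DESeq2, 5 by limma-voom). *Rsad2*, which encodes the antiviral enzyme viperin, measured 53.6, 70.3, 39.2, and 44.0 CPM in vehicle and 13.04, 24.5, 21.3, and 20.3 CPM in HPβCD animals, without overlap. The most abundant genes of this list, *Ifit1* and *Ifit3*, had log2 fold changes of 0.00 and -0.06. *Trim21* at 0.12, *Fcgr4* at 0.03, and *Fcgr1* at -0.36 lay within the range of this list (-1.96 to 0.13) but above its called member.

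Calls of *Fcgrt*, *Fcmr*, and *Fcer1g* changed with the test and the animals kept, and their direction did not. All alternatives refit the same libraries, in which the groups did not overlap for these 3 genes. An unchanged direction is therefore a description and no separate support. *Fcgrt* was above 0 and *Fcmr* below 0 in the main edgeR fit and in each of the 26 alternatives, and each was called in 18 of these alternatives, though not in the same 18. *Fcer1g* was above 0 in all 26 and was called in 3, each of them a DESeq2 fit.

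**Figure D5:**
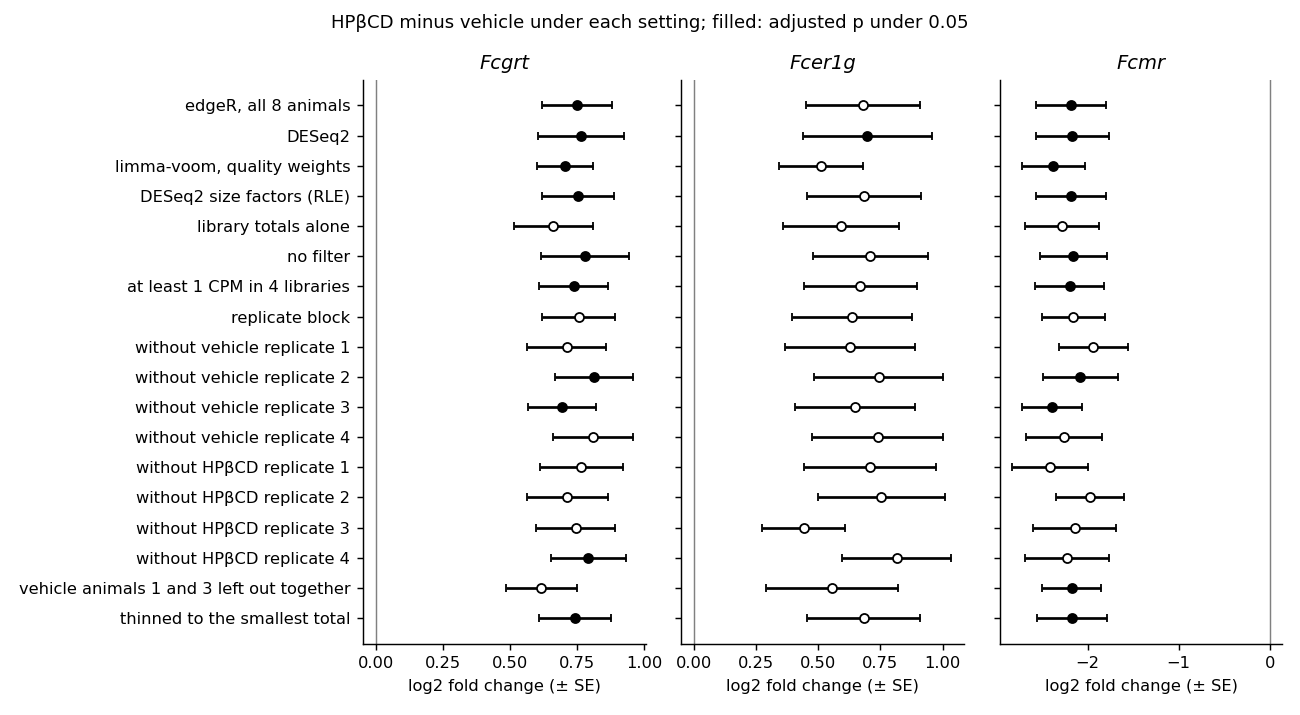
Log2 fold change, HPβCD minus vehicle, with its SE for *Fcgrt*, *Fcer1g*, and *Fcmr* under edgeR with all 8 animals (top) and under each alternative other than the DESeq2 fits with animals left out. Filled points had an adjusted *p* under 0.05. Leaving out 1 animal at a time moved *Fcgrt* between 0.69 and 0.81 and *Fcmr* between -2.41 and -1.94.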

How the data were processed

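Infarct RNA of 8 mice (4 vehicle, 4 HPβCD) was sequenced by the authors as stranded poly(A) libraries. Per the labels' processing notes they used bcl2fastq 2.19, Trimmomatic 0.32, STAR 2.5.2b, HTSeq, and DESeq2 on build GRCm38. The HTSeq version, its strand setting, and the annotation release were not given in the sources used here. The deposited values are raw counts per gene, 1 table per animal. Lines for unassigned reads (26.6% to 36.6% of each table, mostly reads with several positions, which are not counted) were left out. Symbols matched 45143 of 46078 identifiers. Groups came from the labels, which name each animal as a replicate and give no batch. No 2 libraries agreed within sampling noise (chi-square at least 19.8 per degree of freedom).

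Counts were tested with edgeR 4.0.16 (robust quasi-likelihood, TMM, filterByExpr) in R 4.3.3 and adjusted over 14736 genes. DESeq2 1.42.0, limma 3.58.1 (voom), other scalings and filters, left-out animals, thinning, and a replicate block were alternatives. The edgeR script was tested on simulated data. Coordinates and exon lengths came from GENCODE M21 and start-site sequences from RefSeq, with all 9 members matched. Named were the 9 members, the 3 most abundant tested genes and every called gene of each other list, and the 3 genes most like *Fcer1g* and *Fcgrt*, except 2 genes that are not reported here. Members and lists were chosen with earlier results of these data known. With counts of this depth, 3 counts correspond to 0.0861 to 0.184 CPM, counting error only.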

Additional observations from a re-analysis of the deposited data

Results flagged for a closer look

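In 5 of the 64 groups of 4 animals examined, 1 animal lay farther from the other 3 than the 95% limit of Dixon's test for 4 samples allows, where chance gives 3.2. HPβCD animal 3 had a log2 CPM of 8.91 for *Fcgr2b*, against 8.24 to 8.26 in the other HPβCD animals. The same animal had the lowest *Fcgrt* as a percent of the pan-myeloid sum (5.67%, others 7.87% to 8.01%). It also had the lowest *Fcmr* as a percent of the B lymphocyte sum without *Cd22* (4.32%, others 6.43% to 6.94%). HPβCD animal 4 had the lowest *Fcer1g* level over the 3 activating receptors (3.72, others 3.91 to 3.92), and vehicle animal 4 the lowest *Fcgr4* as a percent of the pan-myeloid sum (2.49%, others 3.23% to 3.29%). The cause of these values was not tested.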

How the results depend on the processing

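edgeR called 2 members with all 8 animals, 0 with library totals alone, 0 with the replicate block (*Fcgrt* 0.75, adjusted *p* = 0.0843, and *Fcmr* -2.16, adjusted *p* = 0.0817), 1 with vehicle animals 1 and 3 left out together (*Fcmr*), and from 0 to 3 with single animals left out (edgeR or DESeq2). Where edgeR called 0 members, it called 0 to 11 of all genes and 2922 to 4216 were at an unadjusted *p* under 0.05. The animal numbers of the labels did not pair the animals (correlations of -0.26, 0.24, 0.33, and 0.10 between same-numbered animals, 2 of 4 best with their own number). The fits with DESeq2 and animals left out were added after the data were seen. *Fcgr4* changed sign with limma-voom (-0.083), library totals alone (-0.071), the replicate block (-0.022), vehicle animals 1 and 3 left out (-0.064, and -0.074 in DESeq2), and single animals left out (-0.27 to 0.21). *Trim21* changed sign with limma-voom (-0.019), vehicle animals 1 and 3 left out (-0.065, and -0.073 in DESeq2), and single animals left out (-0.0081 to 0.25). The cause was not tested. Genes called numbered 287 in edgeR, 2911 in DESeq2, and 3253 in limma-voom. Depth limits *Pigr*.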

Other observations

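Markers of other cells that carry Fc receptors, and of plasma cells and glia, were as follows. Of 7 homeostatic microglia markers, 5 had log2 fold changes below 0 and edgeR called *Siglech* lower (-2.40, adjusted *p* = 0.0483; 3 were called by DESeq2 and 5 by limma-voom), with summed CPM of 513 to 1083 in vehicle and 668 to 1090 in HPβCD infarcts. Of 8 plasma cell markers, 7 were below 0 and edgeR called *Jchain* lower (4 were called by DESeq2 and 4 by limma-voom), with summed CPM of 1258 to 2754 and 355 to 610.4, without overlap. edgeR called none of the tested markers of border macrophages (6 tested, 3 at an unadjusted *p* under 0.05, 1 by DESeq2, 1 by limma-voom), monocytes (5, 2, 1, and 2), neutrophils (3, 0, 0, and 0), mast cells (5, 0, 0, and 0), natural killer cells (6, 1, 0, and 2), or T lymphocytes (7, 1, 1, and 1). The summed CPM of natural killer cell markers was 11.0 to 27.8 in vehicle and 10.9 to 22.4 in HPβCD infarcts, and that of neutrophil markers 53.8 to 74.7 and 56.1 to 119.9. Oligodendrocyte and astrocyte markers, 6 of each, were all below 0, and edgeR called none (0 and 4 at an unadjusted *p* under 0.05, 1 and 4 by DESeq2, 6 and 5 by limma-voom). Summed CPM of the oligodendrocyte markers was 1518 to 4876 in vehicle and 158 to 1930 in HPβCD infarcts, with overlap. For the astrocyte markers it was 2124 to 8976 and 607 to 2436, also with overlap.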
